A study of Mus musculus with 4 samples.

Results

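The genes described here carry cells through mitosis. They are 53 genes for the G2/M cyclins and their kinase, the mitotic kinases, the spindle checkpoint, the kinetochore, mitotic kinesins, condensin, cytokinesis and 2 transcription factors of this programme, chosen by gene symbol from 17478 genes listed in at least 1 library. All 53 were listed in every library and all 53 passed the filter on low counts, so no member was lost. RNA was sequenced from CD4+ T cells of C57BL/6 mice aged 6 to 8 weeks, which were naive when sorted from lymph nodes and spleen, were stimulated with antibodies to CD3 and CD28, and grew for 3 days in Th9 conditions, which steer helper T cells towards interleukin 9. The wild-type group and the Bfar knockout group had 2 libraries each. The knockout is labelled BFAR-/- and described as conditional in T cells. The sources used here do not give the Cre driver, the deleted exons or whether the libraries of a group came from separate mice, and each p-value is therefore set against a spread among libraries that may be technical.

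Entry into mitosis is driven by cyclin-dependent kinase 1 bound to A- and B-type cyclins. Polo-like and Aurora kinases then build the spindle, condensin compacts the chromosomes, and the spindle checkpoint holds back the anaphase-promoting complex until every kinetochore is attached. Destruction of securin and cyclin B by that complex releases separase and starts anaphase, after which the midzone proteins and the contractile ring divide the cell. Naive T cells rest outside the cycle and divide rapidly in the days after activation, so these genes are among the most strongly induced genes of an activated culture. Their transcription peaks in G2 and M and depends on the MuvB complex, which works with B-Myb and FOXM1 in cycling cells and with p107 or p130 as the repressive DREAM complex in resting cells.

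What most members share besides their function is a promoter pattern, and 4 promoters are printed to show it in genes that went lower, went higher or did not pass the test. The cell cycle homology region, or CHR, is the element that MuvB binds, and the CCAAT box, bound by NF-Y, often lies upstream of it. The windows run from 250 bases before to 50 bases after the start given by RefSeq (GRCm38.p6), in the direction of transcription. For Cdc25b and Top2a the start used for the window lies inside the outer bounds of the gene, while for Plk1 and Cdc20 it is the outer end. Capitals mark a CHR (TTTGAA or TTCGAA) or a CCAAT box, each on either strand. Plk1 lies at chr7:122159185-122159484 on the plus strand, Cdc20 at chr4:118437294-118437593 on the minus strand, Cdc25b at chr2:131186698-131186997 on the plus strand and Top2a at chr11:99024140-99024439 on the minus strand.
Plk1: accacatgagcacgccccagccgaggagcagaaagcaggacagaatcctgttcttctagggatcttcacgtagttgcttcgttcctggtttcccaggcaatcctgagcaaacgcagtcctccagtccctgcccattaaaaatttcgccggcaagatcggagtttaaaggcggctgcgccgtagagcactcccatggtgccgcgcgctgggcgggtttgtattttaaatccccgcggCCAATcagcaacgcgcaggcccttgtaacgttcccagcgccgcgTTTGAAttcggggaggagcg
Cdc20: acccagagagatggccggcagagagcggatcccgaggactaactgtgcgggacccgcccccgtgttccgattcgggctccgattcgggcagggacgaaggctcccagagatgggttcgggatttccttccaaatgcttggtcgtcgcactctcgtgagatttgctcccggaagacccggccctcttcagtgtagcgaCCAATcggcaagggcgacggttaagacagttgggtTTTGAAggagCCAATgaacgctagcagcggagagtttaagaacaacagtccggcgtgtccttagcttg
Cdc25b: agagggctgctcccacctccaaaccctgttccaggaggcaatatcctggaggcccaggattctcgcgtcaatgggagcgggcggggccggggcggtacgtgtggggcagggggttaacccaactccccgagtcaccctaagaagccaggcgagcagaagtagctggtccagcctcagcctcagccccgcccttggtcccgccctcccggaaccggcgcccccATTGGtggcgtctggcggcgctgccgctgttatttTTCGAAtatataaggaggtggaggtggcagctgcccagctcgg
Top2a: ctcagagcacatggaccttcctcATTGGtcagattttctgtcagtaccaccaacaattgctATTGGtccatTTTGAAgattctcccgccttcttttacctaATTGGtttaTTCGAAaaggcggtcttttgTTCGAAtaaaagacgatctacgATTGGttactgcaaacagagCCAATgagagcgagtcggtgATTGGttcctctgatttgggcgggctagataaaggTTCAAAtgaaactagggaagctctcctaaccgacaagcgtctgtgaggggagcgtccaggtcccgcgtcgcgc

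The Plk1 window held a CCAAT box that begins 14 bases upstream of the start and a TTTGAA at base 31 of the transcript. Cdc20 held TTTGAA 18 bases upstream, between CCAAT boxes that begin 53 and 8 bases upstream. Cdc25b held an inverted box 28 bases upstream and TTCGAA at base 8 of the transcript. Top2a held CHR letters at 4 places and a box at 6. The promoter table gave windows for 44 members. Of these, 34 (77.3%) held a CHR, 34 (77.3%) a CCAAT box and 30 (68.2%) both, whereas among the 10081 other tested genes with a window the shares were 16.3%, 43.0% and 6.79%. Among all 27025 genes of the table they were 21.7%, 41.1% and 8.61%. A match is a description of the letters and not evidence of a bound site. Both motifs were found in 6 of 9 members that were lower in the knockout, in 2 of 3 that were higher and in 22 of 32 that did not pass the test. A CHR was found in 6, 2 and 26 of these, and a CCAAT box in 8, 2 and 24. These sets are small, and differences between them were not tested. Mybl2 and Pttg1, described below, had neither set of letters in their windows.

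**Figure D1:**
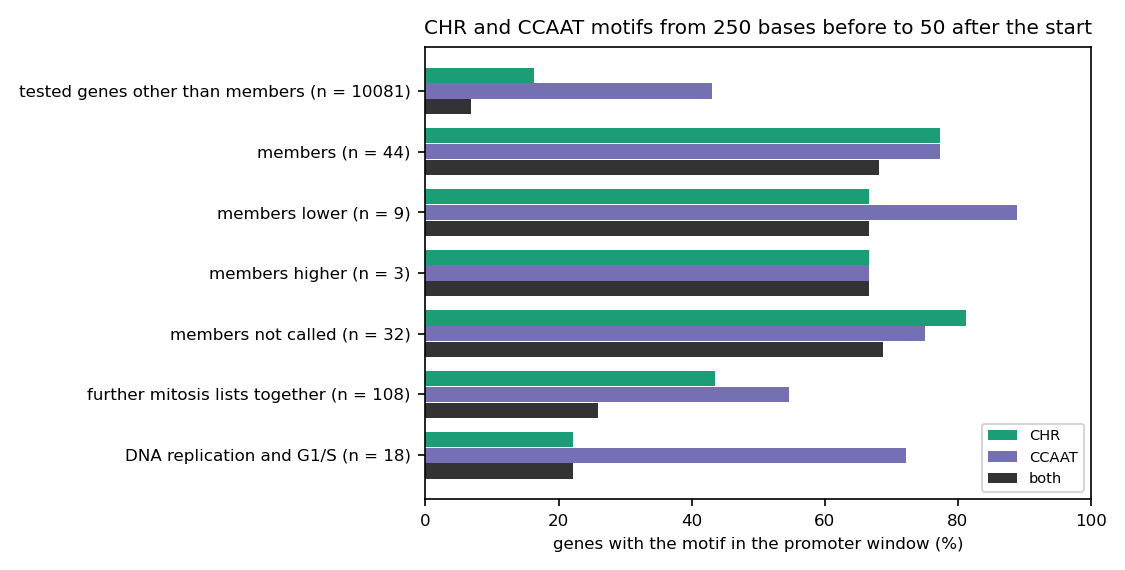
Bars give the percentage of genes (x axis) whose promoter window holds a CHR, a CCAAT box or both, for the sets on the y axis with the number of genes in brackets. Both motifs occur in 68.2% of members, in 6.79% of other tested genes and in 25.9% of the further genes of mitosis. The shares with both are near equal in lower, higher and uncalled members, from 9, 3 and 32 genes.

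The libraries held 19058009 to 19782923 expected counts, which are reads assigned to genes by an estimate and need not be whole. Bfar, a ubiquitin ligase gene (chromosome 16, 13671858 to 13703612, GRCm38), had 36.4 and 32.9 CPM (CPM being counts scaled to a common library size with TMM factors) with Bfar intact and 8.44 and 7.79 in its knockout, as their labels have it. Il9 was at 536 and 505 CPM in the wild type and 238 and 270 in the knockout. The 7 CD4 T cell markers examined summed to 1916 and 1922 CPM in the wild type and 2070 and 2031 in the knockout, with 4 higher and 1 lower. The 19 listed markers of 8 other cell types summed to between 30.0 and 30.8 CPM in every library, and 1 of them passed the test: Kit, a mast cell and progenitor receptor, at 1.51 and 1.32 against 3.57 and 3.32 CPM. The part of the marker shifts in the results below was not tested.

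Members were abundant, between 11.7 and 1367 CPM in any library, and together they took 7923 and 8057 CPM of the wild type and 7770 and 7737 CPM of the knockout. The summed level was thus lower in both knockout libraries, by a small amount. By edgeR's quasi-likelihood test, with Benjamini-Hochberg adjustment over 12677 genes at 0.05, 13 of 53 members (24.5%) fell in the knockout, 3 (5.66%) rose and 37 did not pass. Over all tested genes 13.2% fell and 13.6% rose, 26.8% in either direction. That comparison is not matched for abundance. Every member had at least 225 counts in each library, whereas the filter on low counts used a minimum count of 10. Members had a median log2 fold change (knockout over wild type) of -0.03, and all tested genes -0.0023. The median of the members was -0.062 without wild type replicate 1, -0.020 with upper-quartile factors and -0.053 with a trend in transcript length removed. Both knockout libraries lay below both wild-type libraries for 28 members (52.8%, against 31.9% of all tested genes) and above them for 13 (all tested genes 31.6%). Of the 16 calls, 15 were smaller than 1.5-fold. In RNA from a whole culture, fewer cells in mitosis and less of each transcript per cell cannot be told apart. The count of members that fell was 4 when either knockout library was left out (replicate 1 or replicate 2, where 6.66% and 4.84% of all genes fell) and 7 when wild type replicate 2 was (8.55%), and it was 5 with DESeq2 (6.20% of all genes) and 5 with no filter on low counts (5.03%).

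**Figure D2:**
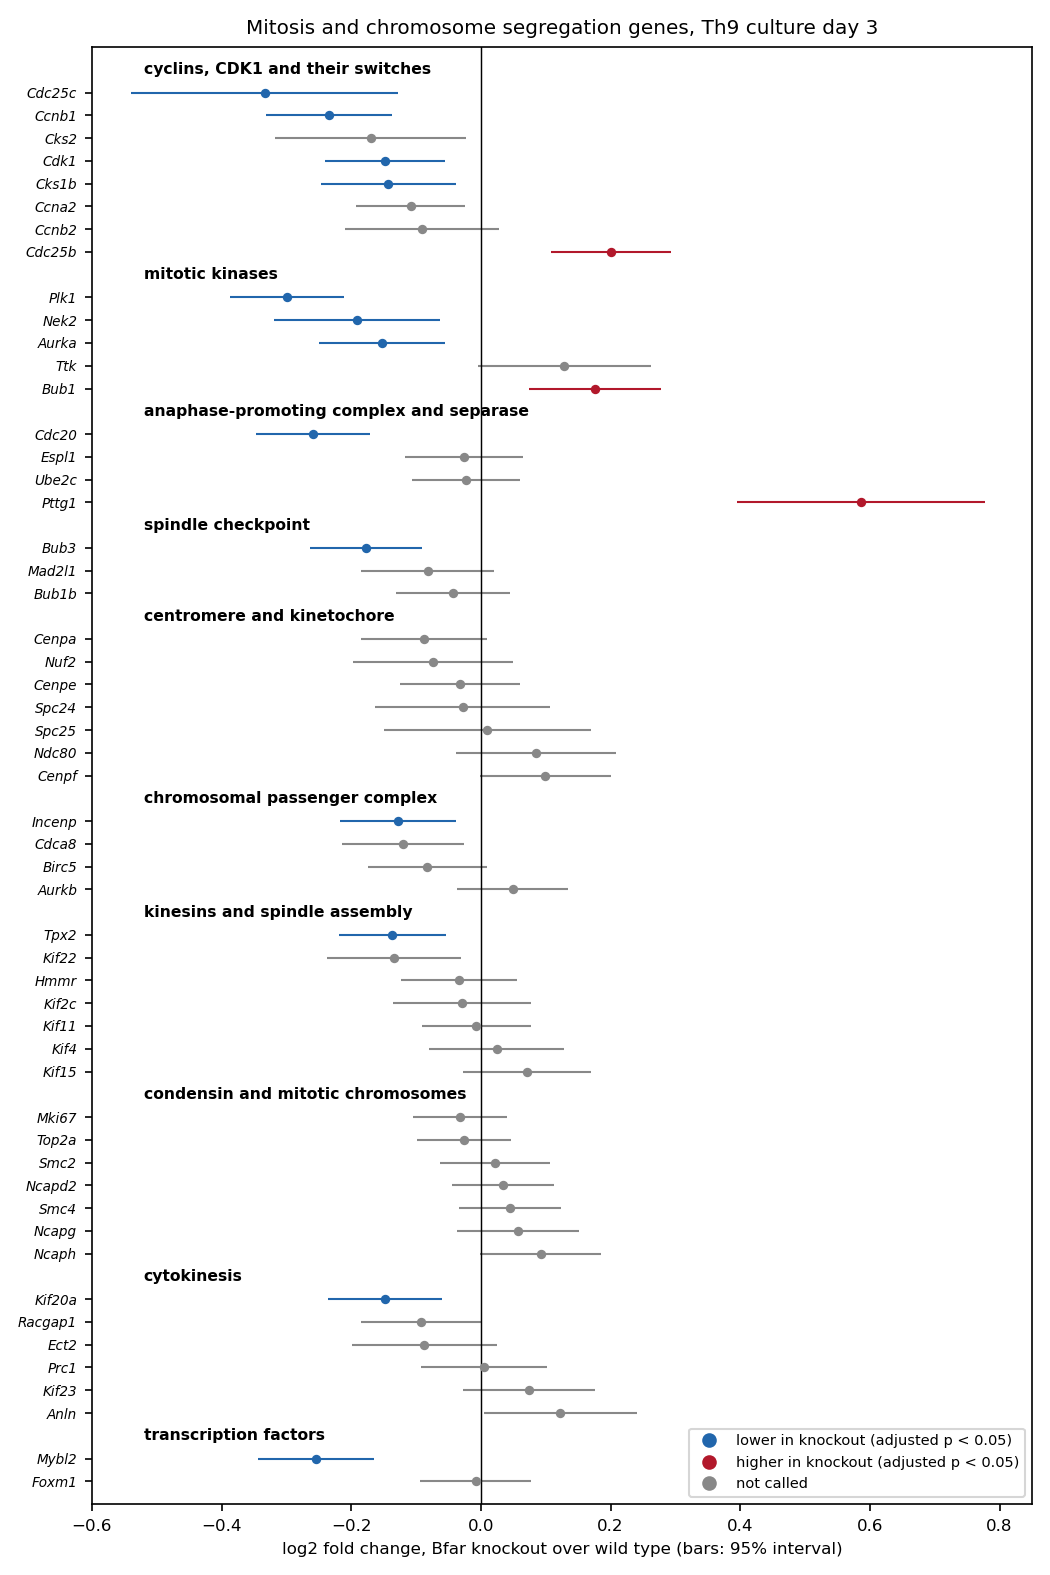
Points give the log2 fold change of each of the 53 members (x axis, knockout over wild type) with its 95% interval from edgeR, ordered by role on the y axis; blue members fell, red members rose and grey members did not pass. Of the 13 lower members 4 are in the block of cyclins and switches, 3 are kinases and the rest are spread over other roles, and the kinetochore and condensin blocks lie around 0.

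Over all tested genes 13.2% fell and 13.6% rose, the shares to set beside the counts by role here and below, each from few genes. Among the cyclins, cyclin-dependent kinase 1 and their switches, 4 of 8 fell and 1 rose. Ccnb1, which encodes cyclin B1, the main partner of the mitotic kinase, had 111 and 116 CPM in the wild type and 98.9 and 94.0 in the knockout. The groups did not overlap, and Ccnb1 fell (log2 -0.23 ± 0.05, SE, n = 2 per group; edgeR adjusted p = 0.0014, 0.0592 without knockout replicate 2). Cdk1, the kinase itself, was at 94.6 and 94.5 against 84.7 and 86.0 CPM and fell by 9.74% (adjusted p = 0.0194 with edgeR, 0.156 with DESeq2). Its call was lost without any 1 of the libraries, with adjusted p-values of 0.0831 to 0.108. Cdc25c encodes a phosphatase that removes the inhibitory phosphates from the kinase. With Pttg1 it was one of the pair of scarcest members by counts, at 15.5 and 14.5 against 11.7 and 12.2 CPM, and its log2 fold change of -0.33 ± 0.10 was the lowest of all 53 (edgeR adjusted p = 0.0182). That call did not survive the removal of wild type replicate 1 (0.121) or knockout replicate 1 or 2 (0.123 and 0.0896). Its relative Cdc25b, the phosphatase that acts first at the centrosome (chromosome 2, 131186436 to 131198511), went the other way.

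Cdc25b had 81.6 and 80.8 CPM in the wild type and 93.0 and 93.6 in the knockout. Both knockout libraries stood above both wild-type libraries, and the gene rose by 14.9% (log2 0.20 ± 0.04; edgeR adjusted p = 0.00321). Cks1b, a small subunit of cyclin-dependent kinases, fell by 9.42% (adjusted p = 0.0427), a call lost without any 1 library (0.0912 to 0.239), with upper-quartile factors (0.0637) and with the length trend removed (0.103). It shares 14.1% of its 31-base words with the listed gene Cks1brt. Its relative Cks2 had 63.1 and 75.7 against 60.3 and 63.1 CPM and did not pass (edgeR adjusted p = 0.0829), though it did without wild type replicate 1 (0.00506). Ccna2, for cyclin A2, and Ccnb2, for cyclin B2, had log2 fold changes of -0.11 and -0.09 with edgeR adjusted p-values of 0.0544 and 0.255. With the replicate numbers as a block both Ccna2 (0.019) and Cks2 (0.0152) passed, and Ccna2 also passed by library size alone (0.044).

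Of 5 kinases 3 fell and 1 rose, where 13.2% and 13.6% of all tested genes did. Plk1 (chromosome 7, 122159435 to 122169884), the polo-like kinase that acts from mitotic entry to cytokinesis, had 139.3 and 139.5 CPM in the wild type and 115 and 111 in the knockout. The wild-type values were almost equal and the knockout values were both well below them, a fall of 18.7% (log2 -0.30 ± 0.04, SE, n = 2 per group; edgeR adjusted p = 9.32e-05). Aurka, the centrosomal Aurora kinase, was at 91.5 and 96.0 against 83.4 and 85.3 CPM and fell by 0.15 on the log2 scale (adjusted p = 0.0214 by edgeR). Leaving out wild type replicate 2 (0.193) or knockout replicate 1 or 2 (0.14 and 0.0939) ended that call, as did removal of the length trend (0.0525). Nek2, which promotes centrosome separation, fell by 12.4% (edgeR adjusted p = 0.0275), lost without the same libraries (0.283, 0.186 and 0.128).

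Bub1, the checkpoint kinase at kinetochores, had 69.1 and 72.2 CPM in the wild type and 78.4 and 81.2 in the knockout. It rose by 12.9% (log2 0.18 ± 0.05; edgeR adjusted p = 0.0129). The call ended when wild type replicate 1 (0.137) or knockout replicate 1 or 2 (0.0528 and 0.127) was left out, and with log2(FPKM + 0.1) (0.0634). Ttk, the checkpoint kinase that acts upstream of it, had 38.7 and 41.8 against 42.3 and 45.7 CPM. Its groups did not overlap, but its log2 fold change of 0.13 did not pass (edgeR adjusted p = 0.148).

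Among 4 genes of anaphase onset 1 fell, 1 rose and the other two did not pass. Cdc20 (chromosome 4, 118432901 to 118437343), the activator of the anaphase-promoting complex that the spindle checkpoint holds back, had 138.9 and 134.7 CPM in the wild type and 115 and 114 in the knockout. It fell by 16.4% (log2 -0.26 ± 0.04; edgeR adjusted p = 0.000312). Pttg1 (chromosome 11, 43420244 to 43427463), which encodes securin, the inhibitor of separase, had 12.3 and 12.2 CPM in the wild type and 18.4 and 18.3 in the knockout. Replicates differed by little and the groups stood far apart, so that Pttg1 rose by 50.1% (log2 0.59 ± 0.09; edgeR adjusted p = 0.000215), the largest change among the 53. Espl1, for separase, had 133.0 and 127.0 against 126 and 129.6 CPM, and Ube2c, for the conjugating enzyme of the complex, 187 and 182 against 181.5 and 182. Their 95% intervals ran from -0.12 to 0.07 and from -0.11 to 0.06 on the log2 scale, so a change as large as that of Cdc20 lay outside both. Exons of Ube2c overlap those of Tnnc2 over 22.8% of its exonic bases, and the strand setting of the counts is not given in the sources used here.

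**Figure D3:**
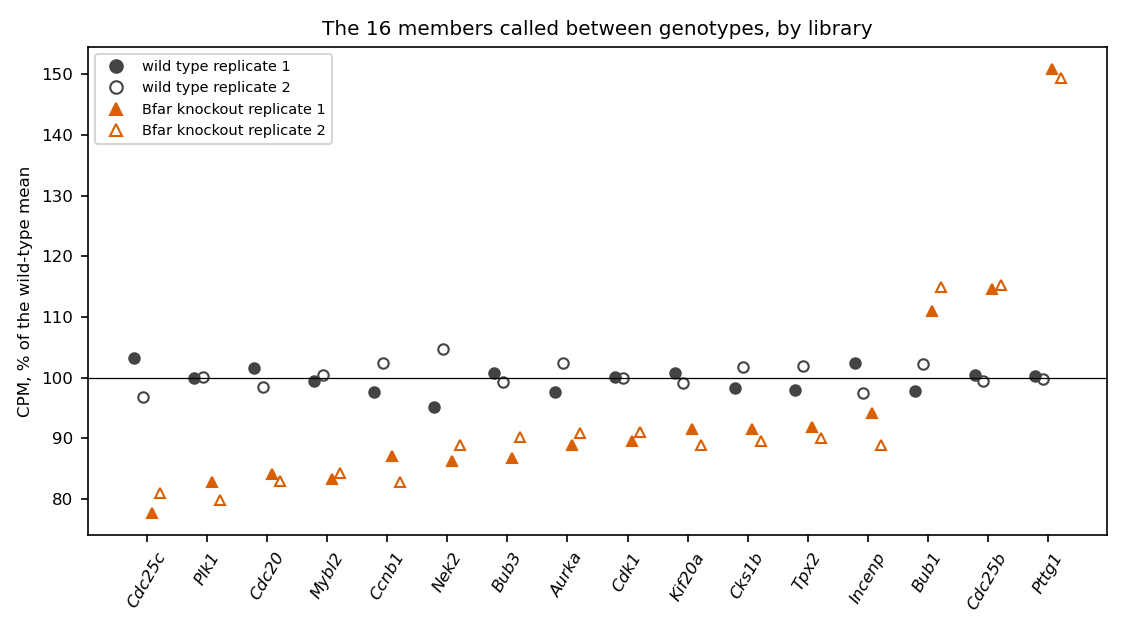
Each point is 1 library's CPM for 1 of the 16 called members (x axis), as a percentage of that gene's wild-type mean (y axis); circles are wild type, triangles are Bfar knockout, filled for replicate 1 and open for replicate 2. Knockout libraries lie below every wild-type library for 13 genes and above them for Bub1, Cdc25b and Pttg1, the last at about 1.5 times the wild-type mean. The 16 genes were chosen by their test in these same libraries. Of all tested genes, 31.9% separated below and 31.6% above in this way.

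In the spindle checkpoint, Bub3, which brings Bub1 and BubR1 to kinetochores, had 167 and 164 CPM in the wild type and 143 and 149 in the knockout and fell by 11.6% (edgeR adjusted p = 0.00451, 0.0725 without knockout replicate 1). Mad2l1, for the inhibitor that captures Cdc20, and Bub1b, for BubR1, had log2 fold changes of -0.08 and -0.04 and did not pass (edgeR adjusted p = 0.229 and 0.485). Both knockout libraries were below both wild-type libraries for all 3 genes, an order seen in 31.9% of all tested genes.

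No member of the centromere and kinetochore list passed, but some further kinetochore genes did. Of 30 further kinetochore genes 5 (16.7%) fell by edgeR and 1 (3.33%) rose, against 13.2% and 13.6% of all tested genes. DESeq2 called none of these 5 falls. Of the 7 members 0 fell or rose by edgeR, 0 also at an unadjusted p under 0.05 and 0 in DESeq2. Their log2 fold changes lay between -0.09 for Cenpa, the centromeric histone, and 0.10 for Cenpf, a late kinetochore protein. The 4 subunits of the NDC80 complex, which grips the microtubule end, were on either side of 0: Nuf2 at -0.07, Spc24 at -0.03, Spc25 at 0.01 and Ndc80 at 0.09, where the signs of Spc24 and Spc25 changed among the alternatives. Cenpe, a kinetochore kinesin, was at 129.8 and 137 against 128 and 133 CPM, with overlapping groups. In the chromosomal passenger complex, which corrects faulty attachments, 1 of 4 genes fell. Incenp, its scaffold, went from 236 and 224 to 216 and 205 CPM (8.46% lower, edgeR adjusted p = 0.0358). That call did not survive the removal of wild type replicate 1 (0.271) or knockout replicate 1 or 2 (0.0656 and 0.289), and with upper-quartile factors (0.051). Cdca8, for the borealin subunit, had 97.3 and 95.5 against 87.1 and 90.3 CPM and did not pass (log2 -0.12; edgeR adjusted p = 0.0554), though it did with the replicate block (0.0364) and by library size alone (0.0458). Aurkb, the kinase of the complex, had 130.5 and 132 against 136 and 135 CPM and did not pass.

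Birc5, which encodes the survivin subunit of that complex, gave a different answer by unit. Its CPM were 94.2 and 94.2 in the wild type and 88.3 and 89.6 in the knockout, and it did not pass on counts (log2 -0.08 ± 0.04; edgeR adjusted p = 0.173). Its deposited FPKM, which divides by transcript length and depth, was 78.6 and 80.1 against 69.6 and 71.0, and limma on log2(FPKM + 0.1) gave -0.17 (adjusted p = 0.0206). The deposited tables list 2 transcripts for Birc5 and a mean length of 1216 and 1194 bases in the wild type but 1282 and 1273 in the knockout, 6.02% longer. The length is an estimate of which of the transcripts the reads came from. For the other members with several transcripts the length moved between genotypes by less, at most 0.699% upwards, for Cenpa, and -0.747% for Pttg1.

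Of the kinesins and spindle assembly factors, 1 of 7 fell. Tpx2, which activates Aurora A on the spindle, had 239.9 and 249.6 CPM in the wild type and 225 and 220.5 in the knockout. It fell by 9.03% (edgeR adjusted p = 0.0165). This call ended when wild type replicate 2 (0.153) or knockout replicate 1 or 2 (0.0757 and 0.138) was left out, and with DESeq2 (0.0552). Kif22, a chromosome arm kinesin, was at -0.13 with an edgeR adjusted p of 0.0524, and it passed with the replicate block (0.0297) and by library size alone (0.0447). Kif11, the kinesin that pushes the spindle poles apart, had 216 and 221 against 222.5 and 213 CPM, and its 95% interval ran from -0.09 to 0.08. Kif2c, Kif4, Kif15 and Hmmr lay between -0.03 and 0.07.

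The genes that shape mitotic chromosomes include the 4 most abundant members by counts, and none passed. By edgeR 0 of 7 fell or rose, 0 also at an unadjusted p under 0.05 and 0 in DESeq2. Mki67, for the Ki-67 protein that coats mitotic chromosomes and is widely used as a proliferation marker, had 1311 and 1367 CPM in the wild type and 1310.1 and 1309 in the knockout (log2 -0.03 ± 0.03; 95% interval -0.10 to 0.04). Removal of a trend with transcript length, an alternative chosen after the data were seen, took Mki67 to -0.11 (edgeR adjusted p = 0.0167), and its transcript is 10098 bases long. Top2a, for topoisomerase II alpha, had 760.4 and 766 against 757 and 742 CPM (interval -0.10 to 0.05). All 5 condensin genes among the members had positive values. These were 0.02 for Smc2, 0.03 for Ncapd2, 0.04 for Smc4, 0.06 for Ncapg and 0.09 for Ncaph. Smc2 turned to -0.01 without knockout replicate 1 and to -0.02 after removal of the length trend. Of 3 further condensin genes 2 had negative values, and 0 fell or rose by edgeR. Exons of Ncapg overlap those of Lcorl over 20.8% of its exonic bases.

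In cytokinesis, 1 of 6 genes fell. Kif20a, a kinesin of the central spindle, had 132 and 129.5 CPM in the wild type and 119.6 and 116 in the knockout (9.73% lower, edgeR adjusted p = 0.0153). Without any 1 library the adjusted p was 0.0544 to 0.129, and 31.8% of its exonic bases overlap exons of Cdc23, so the value is uncertain. Racgap1 and Ect2, which together switch on the contractile ring, had -0.09 each and did not pass, and Kif23, the partner of Racgap1, had 0.07. Anln, which links the ring to the membrane, had 41.7 and 41.8 against 45.2 and 45.7 CPM (log2 0.12, edgeR adjusted p = 0.117). Prc1, which bundles midzone microtubules, was at 0.0044, with either sign among the alternatives, and its exons overlap those of Rccd1 over 21.8% of its exonic bases.

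The pair of transcription factors differed. Mybl2 (chromosome 2, 163054327 to 163084688), for B-Myb, had 109.6 and 111 CPM in the wild type and 91.8 and 92.8 in the knockout and fell by 16.1% (log2 -0.25 ± 0.04; edgeR adjusted p = 0.000408). Foxm1 had 159.7 and 154 against 156 and 156 CPM, with overlapping groups (log2 -0.01 ± 0.04; 95% interval -0.09 to 0.08). The interval of Foxm1 does not reach the value of Mybl2, and the difference between these genes was not itself tested.

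Per length, the leading members held the same order in both genotypes. Ube2c led with a mean of 203 FPKM in the wild type and 199 in the knockout, followed by Top2a (145.0 and 142), Mki67 (131 and 128) and Cks2 (104 and 92.1). At the low end stood Anln with 7.64 and 8.28 FPKM and Cdc25c with 7.74 and 6.12. Anln and Cdc25c exchanged the last place. Across the 53 members the level in the wild type and the log2 fold change had a Spearman rho of -0.391, a description over genes of the same 4 libraries. Transcript length and fold change had a rho of 0.344 over the members and of 0.111 over all 12677 tested genes. The 13 members that fell had a median length of 2316 bases, the 37 that did not pass 3024, and all tested genes 2802. With the length trend removed 12 members fell and 3 rose, where 13.3% of all genes fell. Aurka and Cks1b were then no longer called, and Mki67 was.

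**Figure D4:**
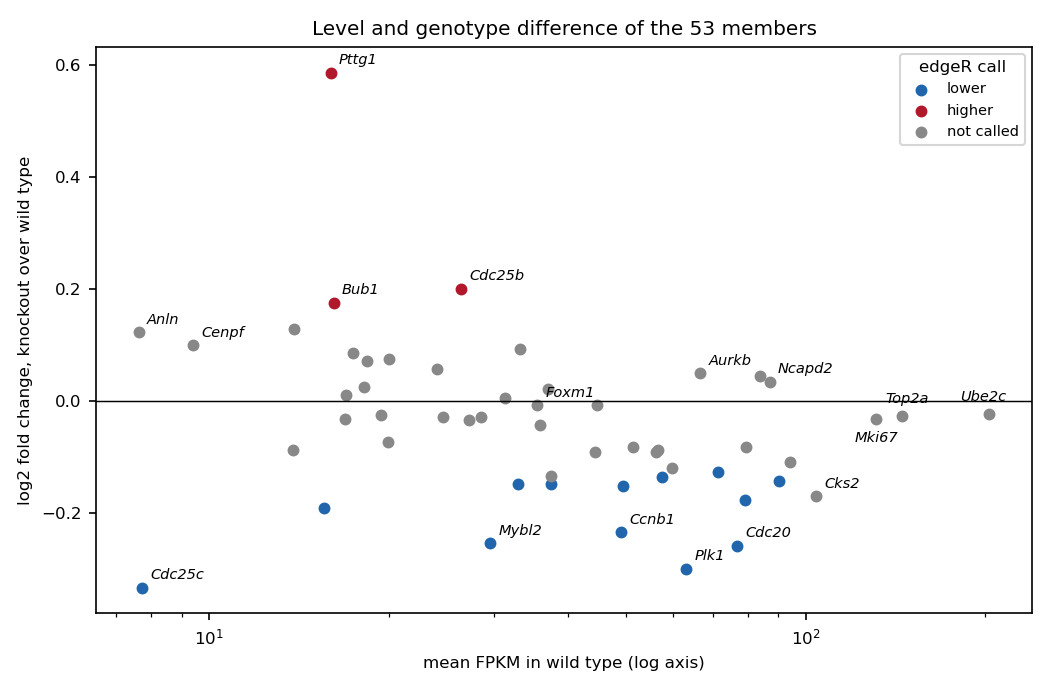
Each point is 1 of the 53 members, with its mean wild-type FPKM on a log axis (x) and its log2 change in the knockout against the wild type (y), coloured by the edgeR call. The 3 most abundant members per length, Ube2c, Top2a and Mki67, lie within 0.04 of 0, and Pttg1 stands alone at 0.59.

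Of the 16 calls, 5 held under all 14 alternatives that were run: the falls of Plk1, Cdc20 and Mybl2 and the rises of Pttg1 and Cdc25b. DESeq2 did not call Cdk1 (adjusted p = 0.156), Cdc25c (0.18), Cks1b (0.272), Aurka (0.151) or Nek2 (0.186). Nor did DESeq2 call Bub1 (0.104), Incenp (0.11), Kif20a (0.0967) or Tpx2 (0.0552). For the 37 members that did not pass, the log2 fold changes lay between -0.17 and 0.13, and the 95% interval of 29 of them stayed within ±0.2, so larger changes in these 29 lay outside the intervals.

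Among other genes of mitosis the share that fell was near that of all genes. Over 131 further genes of the kinetochore, spindle, anaphase-promoting complex, cohesin, condensin, cytokinesis and entry control, 18 (13.7%) fell and 9 (6.87%) rose, with a median log2 fold change of -0.04. Falls and rises were both fewer when single libraries were left out, as they were over all genes. The lists within the 131 differed, each from few genes, and this was not tested. Of 17 anaphase-promoting complex genes 4 fell and 0 rose, and of 19 entry and exit regulators 5 fell and 1 rose. Of 15 cohesin genes 1 fell and 3 rose, and of 13 cytokinesis genes 0 fell and 3 rose. Every call in the cohesin and cytokinesis lists was lost under at least 1 alternative. Fzr1, for Cdh1, the activator that replaces Cdc20 after anaphase, had 124 and 123 CPM in the wild type and 105.2 and 105.4 in the knockout and fell by 14.7% (edgeR adjusted p = 0.000773). Anapc5, a subunit of the complex, went from 352 and 355 to 313 and 316 CPM (11.1% lower; edgeR adjusted p = 0.00263). Cdc25a, the third phosphatase of the family, had a log2 fold change of -0.32 ± 0.04 and fell (adjusted p = 9.55e-05 by edgeR). Rcc1, the exchange factor that marks chromatin for spindle assembly, fell by 0.31, Rcc2, a relative at the centromere, by 0.24, and Gsg2, for the histone kinase haspin, by 0.37. Hjurp, the chaperone that loads Cenpa, rose from 197 and 197 to 226 and 239.7 CPM (log2 0.24 ± 0.04; edgeR adjusted p = 0.000478).

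Of 15 genes of DREAM, MuvB and NF-Y, 4 (26.7%) fell and 1 (6.67%) rose, against 13.2% and 13.6% of all tested genes. Rbl2, which encodes p130, had 141 and 138 CPM in the wild type and 82.9 and 89.7 in the knockout, a fall of 38.1% (log2 -0.69 ± 0.05; edgeR adjusted p = 6.35e-08). Exons of Rbl2 overlap those of Aktip over 8.49% of its exonic bases. Tfdp1, the dimer partner of E2F factors, fell by 17.9% and Rbbp4, a MuvB subunit, by 14.4% (edgeR adjusted p = 6.78e-05 and 0.000438). The remaining fall and the rise in this list were lost under several alternatives, DESeq2 among them. Of 26 genes of DNA replication and the G1/S step, set beside the mitotic genes for comparison, 12 (46.2%) fell and 0 rose by edgeR, with 0 rising also at an unadjusted p under 0.05 and in DESeq2. Their median log2 fold change was -0.14, and fewer of them fell when single libraries were left out, as over all genes. Ccne1, for cyclin E1, had 58.8 and 60.1 against 44.0 and 42.7 CPM. Mcm2, of the replicative helicase, fell by 14.9%, Cdc6, which loads that helicase, by 16.1% and Rrm2, of ribonucleotide reductase, by 14.1% (edgeR adjusted p = 0.000357, 0.00074 and 0.000424). The difference between these lists was not tested. Of the replication and G1/S genes with a promoter window, 4 of 18 (22.2%) held both motifs, against 68.2% of the mitotic members. Among the further genes of mitosis the share was 28 of 108 (25.9%), so the high share of the members did not extend to those genes.

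**Figure D5:**
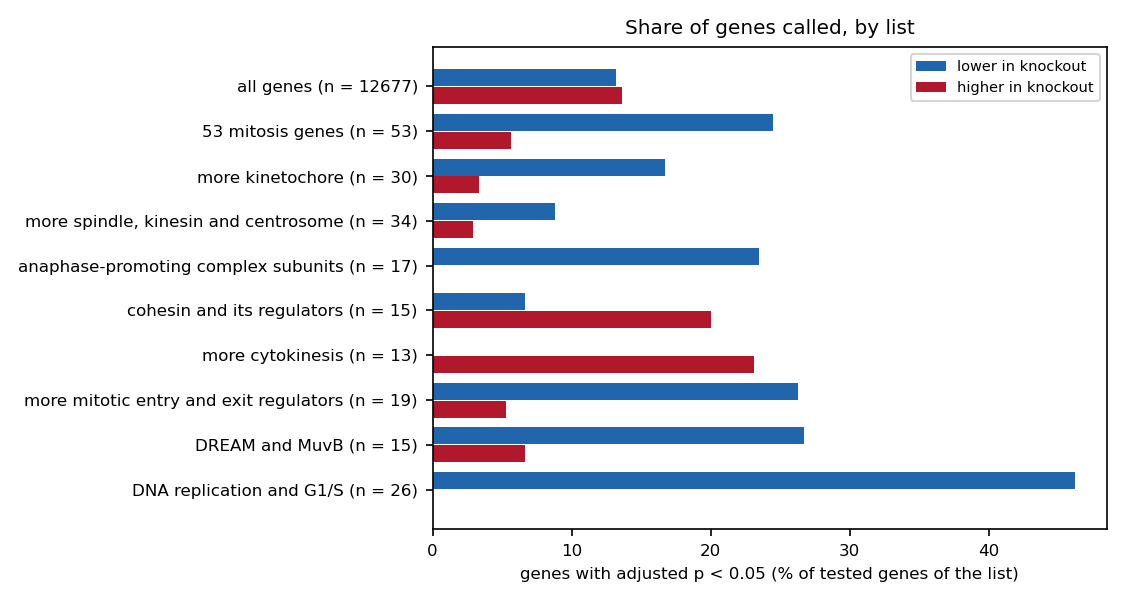
Bars give the percentage of tested genes (x axis) that fell (blue) or rose (red) in the knockout by edgeR for all genes, the 53 mitosis genes and 8 further lists (y axis, number of genes in brackets). The share of falls is 13.2% over all genes, 24.5% over the 53 and 46.2% in the list of DNA replication and G1/S genes.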

How the data were processed

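RNA sequencing libraries from 4 samples were analysed, 2 per genotype, grouped by the labels. Each table holds, per the file headers, an expected count, an FPKM and a length for every listed gene. The deposited FPKM values were scaled by the authors to length and depth. Bowtie, RSEM and GRCm38 (mm10) are named in the submitters' processing notes; the sources used here give no versions, strand setting or annotation release.

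A gene missing from a table was taken as 0. Expected counts were rounded and tested with edgeR 4.0.16 (R 4.3.3; quasi-likelihood, two-sided, TMM factors 0.997 to 1.0022, default filterByExpr, Benjamini-Hochberg at 0.05 over 12677 genes). The same fit was run on simulated counts with no planted change smaller than 1.5-fold. It gives no recovery for smaller changes, and 15 of the 16 member calls were smaller. Standard errors are the absolute log2 fold change over the square root of F. With 2 libraries a group, the smallest exact permutation p for a single value is 0.333. Depth was 19058009 to 19782923 counts, and 3 counts equal 0.152 to 0.157 CPM. Alternatives used DESeq2 1.42.0 and limma 3.58.1. Exon overlap and shared 31-base words came from GENCODE M21 and coordinates and promoters from RefSeq GRCm38.p6. The members and lists were chosen with earlier results of these data known. All members could be named, and of further lists up to 6 genes with the smallest adjusted p among those past 0.05; of these, genes kept under all alternatives are given.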

Additional observations from a re-analysis of the deposited data

How the results depend on the processing

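The edgeR count of members that fell was 13 and became 5 with DESeq2 (6.20% of all genes fell there), 5 with no filter on low counts, 17 with the replicate block, and between 4 and 9 when 1 library was left out, where fewer samples carry the test. The lone library of a group was then assumed to vary like the other group. The count of members that rose was 3 and stayed at 2 or 3 under all alternatives, and the count of falls was 12 with members of overlapping exons left out. All genes called numbered 3398, with 1707 in DESeq2, 1928 with no filter, and 1441 to 2355 without 1 library. The median over members was -0.03, with -0.020 under upper-quartile factors, -0.053 after removal of the length trend (chosen after the data were seen), and -0.062 to -0.028 without 1 library. Of 742 gene results for members, 647 kept their call and direction, 62 lost and 11 gained the call, and 22 changed sign.

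Signs changed in 11 members near 0, none of them called. Foxm1 was 0.0037 and Kif11 0.0046 under upper-quartile factors. After removal of the length trend Kif4 was -0.0023, Smc2 -0.017, Spc24 0.0053 and Ube2c 0.01. Prc1 was -0.0011 by library size alone, -0.0047 with log2(FPKM + 0.1) and -0.0046 with log2(FPKM + 1). Without 1 library the ranges were -0.072 to 0.0081 for Cenpe, -0.059 to 0.0075 for Espl1, -0.034 to 0.018 for Foxm1, -0.039 to 0.025 for Kif11, -0.070 to 0.013 for Kif2c, -0.032 to 0.079 for Kif4, -0.041 to 0.049 for Prc1, -0.014 to 0.058 for Smc2, -0.088 to 0.034 for Spc24 and -0.036 to 0.056 for Spc25. The cause was not tested.

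Replicate numbers in the labels do not say that samples are paired. Deviations of same-numbered libraries from their group means had a correlation of 0.0952 over 9892 genes and of 0.237 over the 53 members. With the replicate block 3948 genes were called, 17 members fell and 3 rose, the added falls being Ccna2, Cdca8, Cks2 and Kif22.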
